A study of Mus musculus with 15 samples.

Results

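Integrins are the receptors through which cells hold on to the matrix around them, and laminins are the main glycoproteins of the basement membrane to which many of them bind. The set described here holds the 37 genes that encode the alpha and beta chains of mouse integrins and the alpha, beta and gamma chains of laminins, chosen by gene symbol alone from the 51826 rows of the deposited expression tables. They are 26 integrin chains and 11 laminin chains, and each matched 1 row. Expression was measured by RNA-seq of whole tissue in 15 libraries from 13 mice. In Trim24COE mice a transgene of murine Trim24 with a Flag tag is released by removal of a floxed stop cassette, by a Cre recombinase under the MMTV promoter, which is active in mammary epithelium. The groups were 3 Trim24COE tumors labelled carcinosarcoma (numbered 1 to 3), here metaplastic carcinosarcomas, 3 Trim24COE tumors labelled carcinoma (1 to 3), 4 control mammary glands of mice that carry the Cre without the Trim24 transgene (1 to 4), and 3 non-TRIM24 tumors (1 to 3). Non-TRIM24 tumors arose spontaneously in mice whose genotype the labels give as unknown. The strain label is FVB, whereas the series text names a mixed background for the controls and a similar one for the tumors. Sequencing ran in 2 batches, and batch 2 held the 3 non-TRIM24 tumors together with a repeat library each of gland 1 and carcinoma 3. These repeat libraries are given beside the first ones and are not counted as further mice. Pathologists differed on carcinomas 1 and 3 and on metaplastic carcinosarcoma 2, and the class used here is that of the sample labels.

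Each integrin is a pair of an alpha and a beta chain, and the alpha chain largely sets the ligand: some pairs bind laminin, some collagen, some the RGD motif of fibronectin and vitronectin, and some are carried by leukocytes and bind receptors on other cells. Laminins are trimers of an alpha, a beta and a gamma chain. In the mammary gland, luminal and myoepithelial cells rest on a laminin-rich basement membrane, and laminin that contains Lama3 and Lamb3 anchors epithelium through hemidesmosomes, in which the pair Itga6 and Itgb4 is its receptor. Lama4 and Lama5 are known from vessel walls, and Lama5 from epithelium as well, while Lama2 is the alpha chain around muscle, fat and Schwann cells.

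Values are TPM, which are scaled to the same total in each library and to transcript length, so that levels can be set side by side between genes. Library depth is unknown. Between 21060 and 34209 rows were above 0 TPM in a library. In the first library of each mouse Trim24 itself lay between 10.6 and 14.5 TPM in metaplastic carcinosarcomas, between 13.9 and 24.1 TPM in Trim24COE carcinomas, between 14.5 and 22.4 TPM in control glands and between 5.34 and 10.04 TPM in non-TRIM24 tumors. Its level in TPM therefore did not set the libraries labelled Trim24COE above the glands, and the group names used here are those of the labels. The paper reports higher Trim24 in Trim24COE tumors than in Cre-only glands by qRT-PCR, and more TRIM24 and Flag protein by antibody staining. Whether the TPM values count the transgene is not known. The control glands differed in their tissue make-up. The 10 adipocyte markers summed to 25950 and 38720 TPM in glands 1 and 2 but to 1774 and 1962 TPM in glands 3 and 4, while the 10 epithelial markers summed to 938 and 1581 TPM in the first pair and to 4869 and 5156 TPM in the second. Non-TRIM24 tumors 2 and 3 were also rich in adipocyte markers, with sums of 55140 and 27860 TPM. In bulk tissue, fewer cells of a type and less RNA per cell cannot be told apart.

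Itgb1, the beta chain that pairs with most alpha chains, was among the members with the highest levels in each group. Lama5 was above it in non-TRIM24 tumor 1, and Itga7, Lama4 and Lamc1 were above it in non-TRIM24 tumor 2. All of the 37 members were above 0 TPM in each of the 15 libraries. By median, 11 members were highest in metaplastic carcinosarcomas, 11 in Trim24COE carcinomas, 10 in control glands and 5 in non-TRIM24 tumors. Carcinoma 3 held the highest value of 10 members, more than any other mouse, followed by gland 3 with 9.

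**Figure D1:**
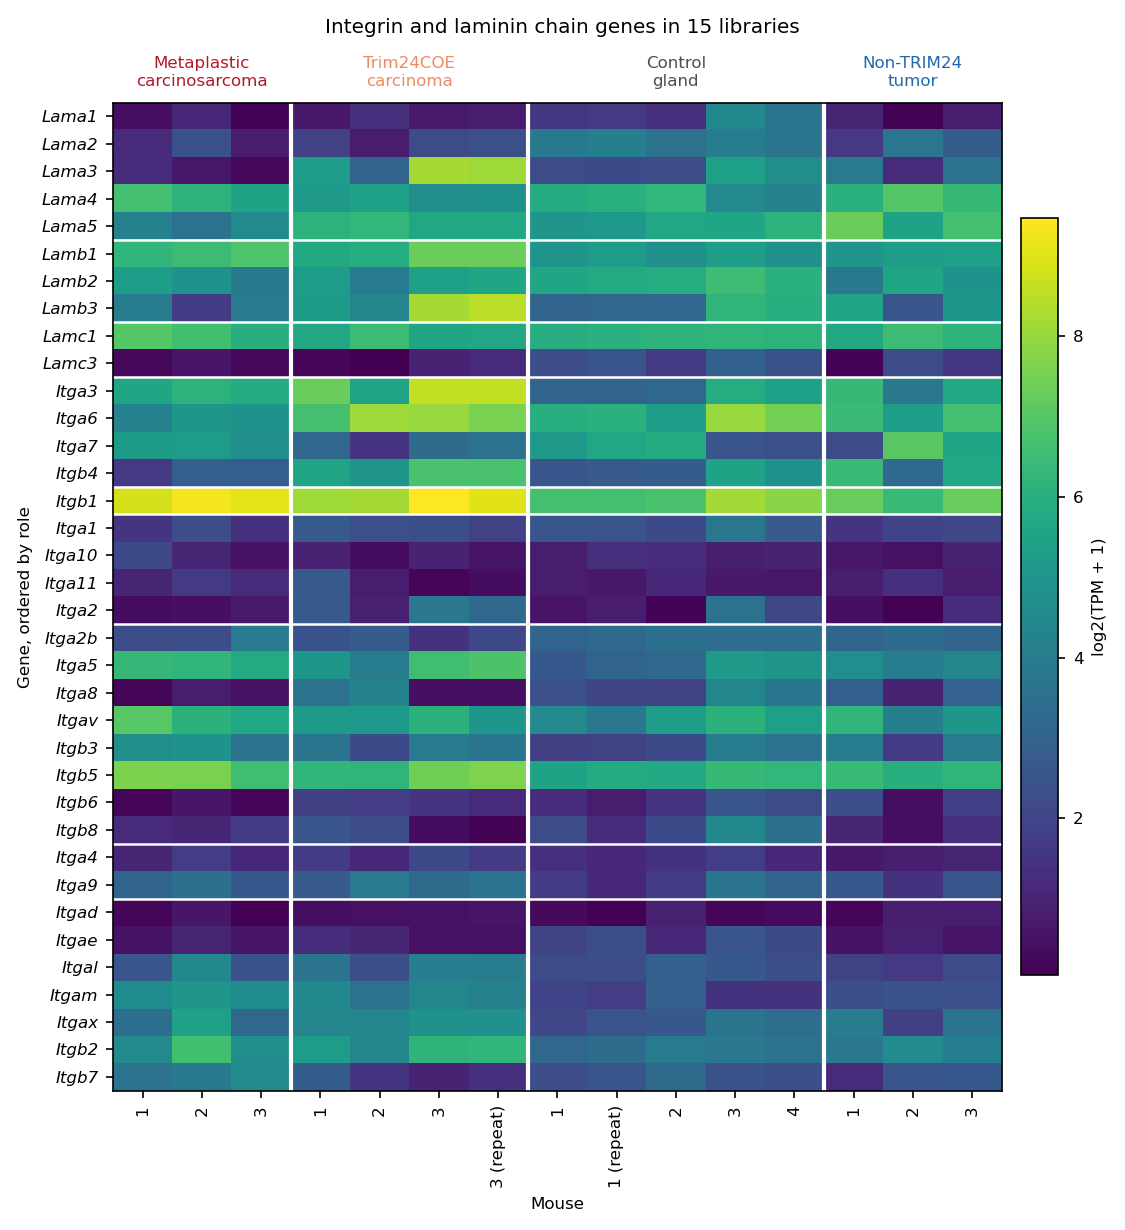
Expression of 36 integrin and laminin chain genes as log2(TPM + 1), with genes in rows ordered by role (white lines part the roles) and the 15 libraries in columns grouped by sample class and numbered as in the text, with second libraries of a mouse marked as repeats. The Itgb1 row is bright in every column, and Lama3, Lamb3 and Itga3 are bright in both libraries of carcinoma 3.

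The 2 classes of Trim24COE tumor were compared with the glands together and apart, with limma on log2(TPM + 1) over all genes that passed the filter on low values, and with a Benjamini-Hochberg adjusted p under 0.05 as the threshold. In the 6 Trim24COE tumors against the 4 glands, 4 of 35 members tested rose (11.4%) and 5 fell (14.3%), against 7.96% and 9.13% of all 15196 genes tested. In metaplastic carcinosarcomas against glands, 7 of 35 rose (20%) and 8 fell (22.9%), against 9.83% and 13.1% of 15287 genes. In Trim24COE carcinomas against glands, 1 of 34 rose and 2 fell, against 1.58% and 1.92% of 15479 genes. Between the tumor classes, 0 of 31 members were higher and 1 was lower in metaplastic carcinosarcomas, against 0.113% and 0.585% of 14193 genes. For non-TRIM24 tumors against glands limma called 0 of 36 members in either direction, against 0.203% and 0.507% of 16775 genes called higher and lower. An unadjusted limma p under 0.05 was found for 6 of the 36 members and for 3235 of the 16775 genes. For Trim24COE carcinomas against non-TRIM24 tumors limma again called 0 of 36 members, against 0% and 0.0298% of 16775 genes called higher and lower. Here an unadjusted limma p under 0.05 was found for 8 of the 36 members and for 2953 of the 16775 genes. The 3 comparisons with glands share the same gland libraries, and the first contains both of the others. In the 6-tumor comparison the member count was between 5 and 11 when single mice were left out, and it was 5 without gland 1 and 5 without gland 4. For metaplastic carcinosarcomas the count of 15 went to 4 without tumor 1, 4 without tumor 2, 6 without tumor 3 and 9 without gland 4. With no filter on low values, the calls of Itgam, Lama2, Lamb1 and Lamc3 held in both of these comparisons. All other member calls in them were lost, as was each of the 3 calls for carcinomas.

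**Figure D2:**
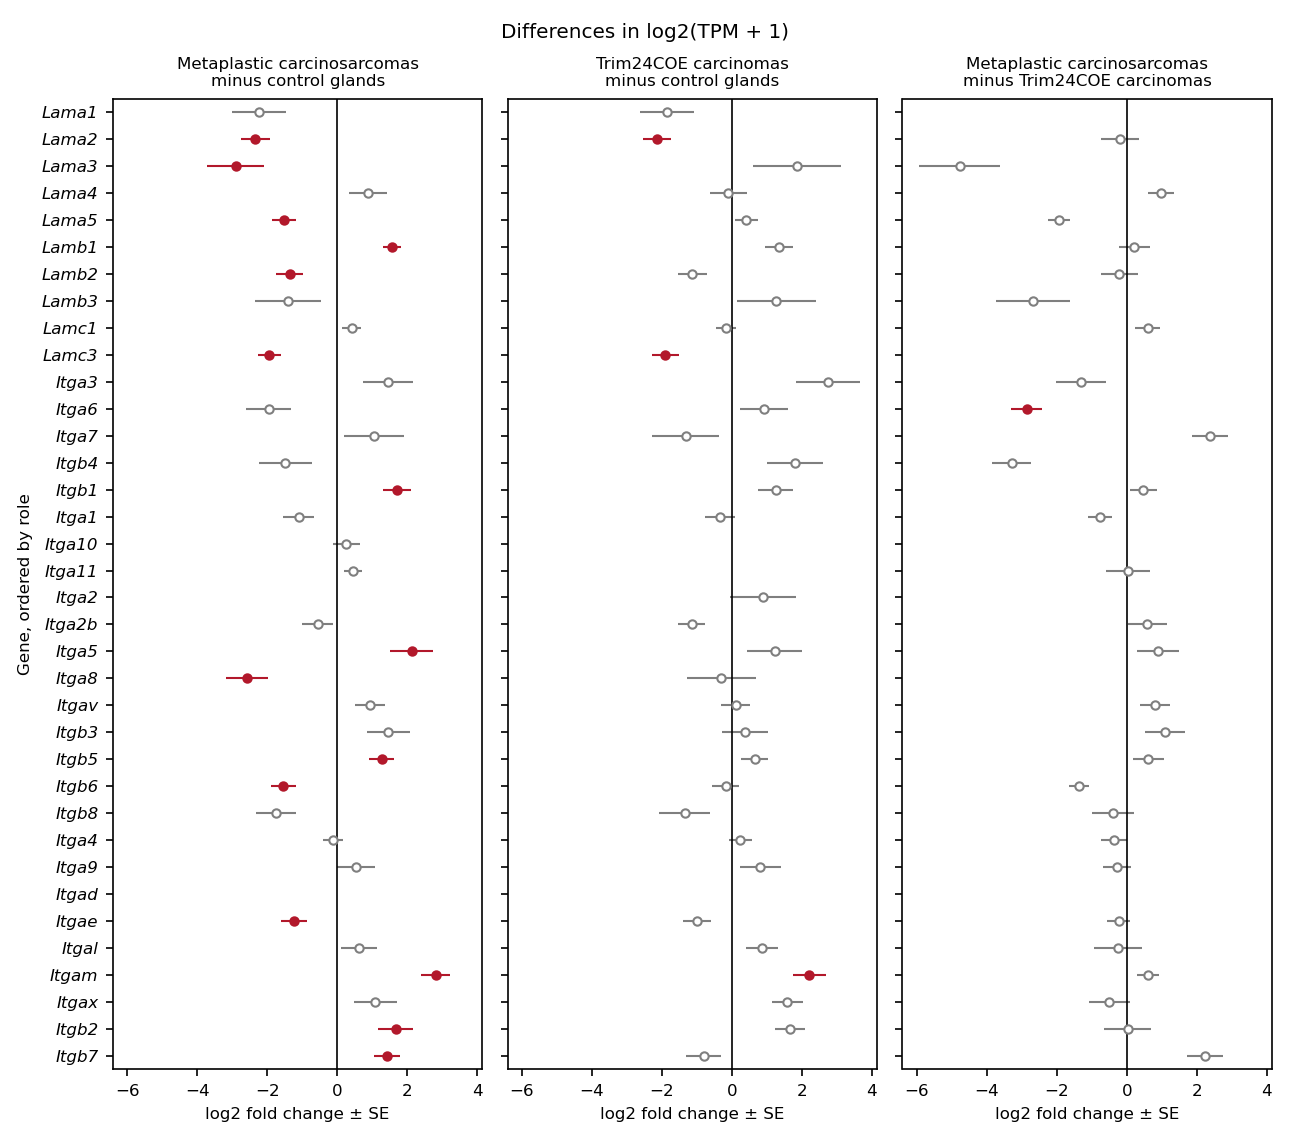
Difference in log2(TPM + 1) for 36 members (rows, ordered by role) in 3 comparisons, with bars of 1 standard error; filled red points passed the limma threshold and open grey points did not, and a row without a point was not tested. Lama3, Lamb3, Itga6 and Itgb4 lie left of 0 in the right panel, while Itgam lies right of 0 in the left and middle panels.

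Promoters are shown for 3 members to which the results below return: Lamb3 and Lama5, which are laminin chains of epithelium, and Itgam, a leukocyte chain that was called in each comparison of Trim24COE tumors with glands. They are RefSeq windows on GRCm38.p6 that run from 250 bases before the transcription start to 30 bases from it on, 5′ to 3′ on the gene's strand. For Lamb3 (chr1:193301993-193302272, plus strand) and Lama5 (chr2:180225830-180226109, minus strand) capitals mark the letters CACCTG on either strand, a form of the E-box. For Itgam (chr7:128062390-128062669, plus strand) capitals mark the letters GAGGAA on either strand, a core bound by the myeloid factor PU.1.

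Lamb3: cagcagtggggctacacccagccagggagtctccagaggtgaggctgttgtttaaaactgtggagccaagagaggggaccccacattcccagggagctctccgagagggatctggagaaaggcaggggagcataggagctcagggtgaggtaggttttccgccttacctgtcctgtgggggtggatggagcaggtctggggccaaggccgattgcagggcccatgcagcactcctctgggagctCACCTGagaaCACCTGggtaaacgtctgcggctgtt
Lama5: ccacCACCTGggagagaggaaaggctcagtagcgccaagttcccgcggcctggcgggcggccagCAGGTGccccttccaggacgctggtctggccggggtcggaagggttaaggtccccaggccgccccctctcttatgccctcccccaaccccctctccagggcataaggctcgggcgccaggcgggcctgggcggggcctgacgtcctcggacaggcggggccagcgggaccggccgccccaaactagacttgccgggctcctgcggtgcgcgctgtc
Itgam: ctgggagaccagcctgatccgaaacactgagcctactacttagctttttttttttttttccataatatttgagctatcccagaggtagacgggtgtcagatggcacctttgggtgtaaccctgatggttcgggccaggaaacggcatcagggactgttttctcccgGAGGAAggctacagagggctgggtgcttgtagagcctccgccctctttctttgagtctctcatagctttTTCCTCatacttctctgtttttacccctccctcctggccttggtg

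Both letters were searched in all 32851 windows of the table, and 26 windows of 23 members were among them. CACCTG was in 19.1% of all windows and in 8 of the 26 member windows. GAGGAA was in 26.0% of all windows and in 14 of the 26. It also lies, unmarked, in the Lama5 window shown. Itgam and Itgb7 were the leukocyte chains with GAGGAA, and Lama2, Lama5, Lamb1, Lamb2 and Lamb3 had it too. TGANTCA (AP-1, N being any base) was in 7.46% of all windows and in 2 of the 26. GGGCGG (GC box) was in 34.7% and in 12 of the 26. Only windows that hold the marked letters are shown. Lamb3 has another window in the table, which holds GAGGAA and not CACCTG. In the Lamb3 window shown the matches start at base -6 and at base 4 counted from 0 at the transcription start. In the Lama5 window they start at -246 and -186, and in the Itgam window at -84 and -15. A match describes these letters and not a bound site.

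Among laminin alpha chains, Lama2 and Lama1 were lower in Trim24COE tumors than in glands, and Lama3 and Lama5 were lower in metaplastic carcinosarcomas than in glands. Lama2 (chr10:26980036-27619758) stood at 13.7, 11.3, 15.4 and 11.9 TPM in glands 1, 2, 3 and 4, at 1.32, 4.34 and 0.71 TPM in metaplastic carcinosarcomas 1, 2 and 3, and at 2.72, 0.77 and 3.76 TPM in carcinomas 1, 2 and 3. None of the 6 tumors reached the lowest gland. In limma its log2 fold change was -2.24 (SE 0.37, limma adjusted p = 0.00298) for the 6 tumors, -2.34 (SE 0.41, limma adjusted p = 0.00708) for metaplastic carcinosarcomas and -2.15 (SE 0.39, limma adjusted p = 0.0297) for carcinomas. Non-TRIM24 tumor 2 was at 12.4 TPM, in the range of the glands, and non-TRIM24 tumors 1 and 3 were at 2.08 and 6.08 TPM. The calls for the 6 tumors and for metaplastic carcinosarcomas held when any mouse was left out, whereas the call for carcinomas was lost without each of the 7 mice (highest limma adjusted p = 0.0812). In batch 2, Lama2 was at 16.5 TPM in gland 1 and 4.15 TPM in carcinoma 3.

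Lama1, a chain of early and glandular basement membranes, fell in the 6-tumor comparison and was low outside the 2 epithelium-rich glands. It was at 20.7 and 12.2 TPM in glands 3 and 4, at 1.97 and 1.59 TPM in glands 1 and 2, and at 0.32, 1.14 and 0.11 TPM in metaplastic carcinosarcomas 1, 2 and 3. The levels in carcinomas 1, 2 and 3 were 0.63, 1.48 and 0.68 TPM, so that the tumors lay below all glands but close to the lower pair. On the log2 scale the difference was -2.04 (SE 0.57, limma adjusted p = 0.0323) for the 6 tumors. The call was lost without any of metaplastic carcinosarcomas 1, 2 and 3, carcinoma 3 and glands 3 and 4 (highest limma adjusted p = 0.0944). It was also lost under quantile normalization and with no filter on low values. Of the tumors only metaplastic carcinosarcoma 2 and carcinoma 2 reached the 1 TPM of the filter, so Lama1 was tested through its level in glands. The non-TRIM24 tumors had 1.02, 0.09 and 0.81 TPM of this chain. Sequenced again, gland 1 and carcinoma 3 had 2.12 and 0.73 TPM of Lama1.

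Lama3, the alpha chain of epithelial hemidesmosome laminin, showed the widest span of the alpha chains. Metaplastic carcinosarcomas 1, 2 and 3 had 1.35, 0.60 and 0.22 TPM, below each gland (3.64, 3.81, 39.9 and 25.3 TPM in glands 1, 2, 3 and 4). In carcinomas 1, 2 and 3 it was at 36.6, 7.49 and 290.0 TPM, with 273.4 TPM in the repeat library of carcinoma 3. The 3 non-TRIM24 tumors had 14.8, 1.33 and 10.8 TPM. In metaplastic carcinosarcomas against glands the log2 fold change was -2.91 (SE 0.81, limma adjusted p = 0.0369). This call was lost without any of metaplastic carcinosarcomas 1, 2 and 3 and glands 3 and 4 (highest limma adjusted p = 0.119). It was also lost with no filter on low values, under quantile normalization and in the joint fit of all batch 1 groups. Only metaplastic carcinosarcoma 1 reached the 1 TPM of the filter, so Lama3 was tested against glands through its level in glands. Against carcinomas the log2 fold change was -4.77 (SE 1.16), with no overlap of the groups, but the limma adjusted p was 0.164. The repeat of gland 1 had 3.52 TPM of Lama3.

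Lama5, the alpha chain of most mature epithelial and vascular basement membranes and the gene of the second promoter shown, was at 17.4, 11.2 and 21.3 TPM in metaplastic carcinosarcomas 1, 2 and 3. Carcinomas 1, 2 and 3 had 69.7, 77.1 and 49.0 TPM, and glands 1, 2, 3 and 4 had 30.5, 51.0, 48.4 and 70.1 TPM. The metaplastic carcinosarcomas lay below every other first library, and non-TRIM24 tumor 1 was highest at 156.1 TPM, beside 44.5 and 98.6 TPM in non-TRIM24 tumors 2 and 3. Against glands the log2 fold change was -1.51 (SE 0.34, limma adjusted p = 0.0181), lost without metaplastic carcinosarcoma 1 or 2 (highest limma adjusted p = 0.0727). Against carcinomas it was -1.93 (SE 0.32) and missed the threshold (limma adjusted p = 0.0603). Fitted with all groups of batch 1 together, Lama5 was the member called between the tumor classes. Sequenced again, gland 1 and carcinoma 3 had 32.5 and 49.99 TPM of Lama5.

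Lama4, the alpha chain of vessels, fat and other mesenchymal tissues, passed no test. It was between 43.4 and 98.3 TPM in metaplastic carcinosarcomas, between 25.03 and 42.8 TPM in carcinomas, between 17.7 and 76.0 TPM in glands and between 65.9 and 122.3 TPM in non-TRIM24 tumors. The 2 tumor classes did not overlap (log2 fold change 0.98, SE 0.36, limma adjusted p = 0.286). As shares of the summed TPM of the 5 alpha chains, Lama4 made up 82.8%, 80.0% and 66.0% in metaplastic carcinosarcomas 1, 2 and 3. In carcinomas 1 and 2 the leading alpha chain was Lama5, with 48.3% and 59.5%, and in carcinoma 3 it was Lama3, with 78.7%. The glands split along the same line as their adipocyte markers: Lama4 made up 53.0% and 52.9% in glands 1 and 2 and 14.7% and 12.9% in glands 3 and 4. These shares are a description and carry no test.

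**Figure D3:**
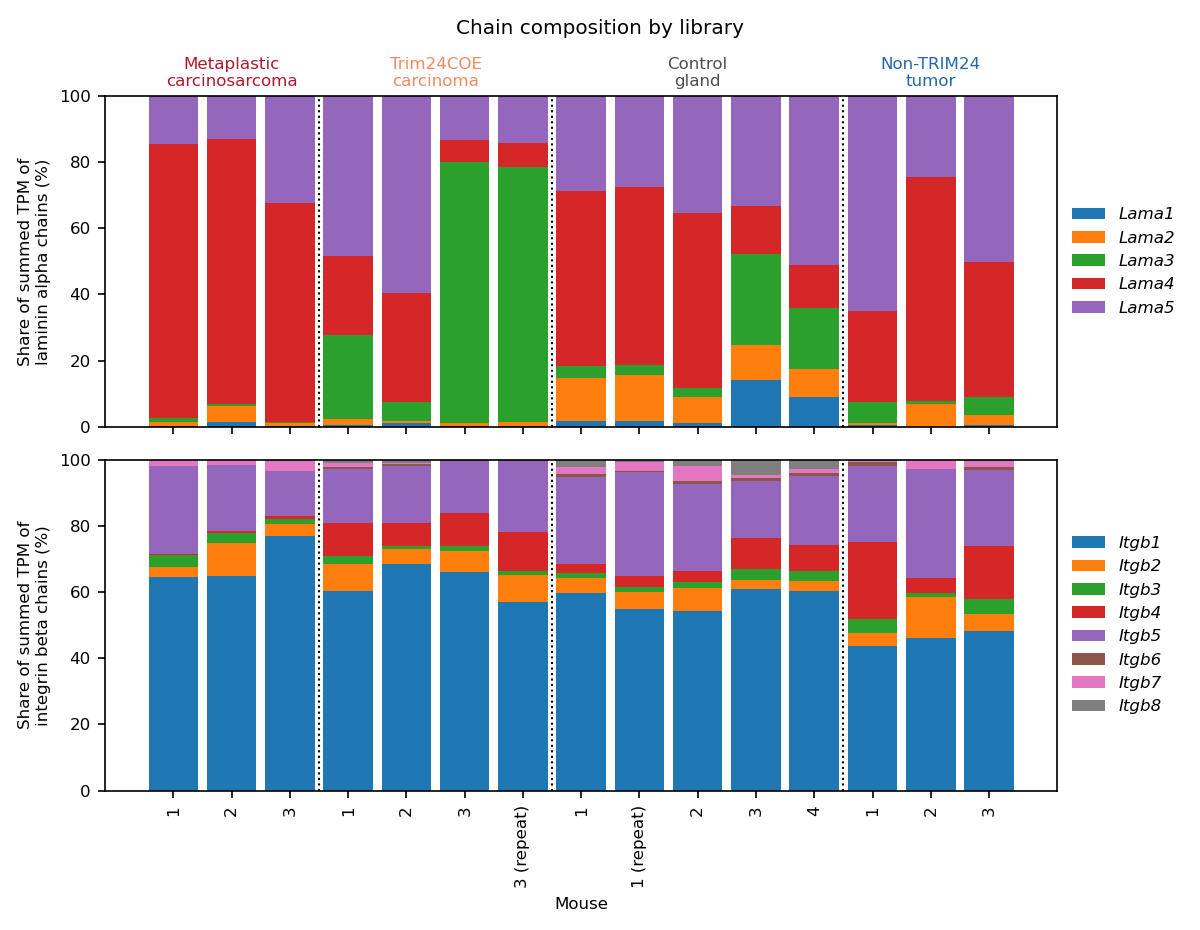
Share (percent) of each chain in the summed TPM of the 5 laminin alpha chains (top) and of the 8 integrin beta chains (bottom), 1 bar per library, with dotted lines between sample classes. Lama4 fills most of each metaplastic carcinosarcoma bar, Lama3 most of the 2 bars of carcinoma 3, and Itgb1 is the largest part of every lower bar.

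Of the laminin beta chains, Lamb1 rose and Lamb2 fell in the tumors. Lamb1 (chr12:31265234-31329644), a chain of widely distributed laminins, was at 74.4, 88.9 and 114.5 TPM in metaplastic carcinosarcomas 1, 2 and 3 and at 53.1, 57.8 and 156.6 TPM in carcinomas 1, 2 and 3. Glands 1, 2, 3 and 4 had 29.4, 26.4, 39.2 and 26.9 TPM and non-TRIM24 tumors 1, 2 and 3 had 29.8, 37.8 and 40.1 TPM. Every Trim24COE tumor was above all glands and above the non-TRIM24 tumors. The log2 fold change against glands was 1.46 (SE 0.31, limma adjusted p = 0.00944) for the 6 tumors and 1.57 (SE 0.25, limma adjusted p = 0.00538) for metaplastic carcinosarcomas, and both calls held when any mouse was left out. With the mean of the adipocyte markers as a covariate the 6-tumor call was lost. For carcinomas the log2 fold change was 1.35 (SE 0.40, limma adjusted p = 0.106), and against non-TRIM24 tumors it was 1.28 (SE 0.39, limma adjusted p = 0.18). In batch 2, Lamb1 was at 36.9 TPM in gland 1 and 157.95 TPM in carcinoma 3.

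Lamb2, the beta chain of vessel, kidney and nerve-muscle basement membranes, was at 38.1, 28.3 and 13.4 TPM in metaplastic carcinosarcomas 1, 2 and 3 and at 37.5, 14.4 and 42.3 TPM in carcinomas 1, 2 and 3. Glands 1, 2, 3 and 4 had 48.6, 57.4, 91.6 and 65.3 TPM, above each of the 6 tumors, although the gap between carcinoma 3 and gland 1 was small. Its log2 fold change was -1.24 (SE 0.36, limma adjusted p = 0.0376) for the 6 tumors and -1.35 (SE 0.38, limma adjusted p = 0.0382) for metaplastic carcinosarcomas. The first call held in 3 of 10 fits that left out a mouse and was lost without any of carcinoma 2, metaplastic carcinosarcomas 2 and 3 and glands 1, 2, 3 and 4, and the second held in 1 of 7, the fit without gland 1 (highest limma adjusted p = 0.102). The first was also lost with the adipocyte covariate and the second in the joint fit of all batch 1 groups. Non-TRIM24 tumors 1, 2 and 3 had 13.6, 48.5 and 28.1 TPM. The repeat libraries of gland 1 and carcinoma 3 gave 55.4 and 47.03 TPM.

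Lamb3, the beta chain of hemidesmosome laminin, was not called in any comparison. It was at 15.1, 2.35 and 13.9 TPM in metaplastic carcinosarcomas 1, 2 and 3, at 34.8, 19.2 and 289.7 TPM in carcinomas 1, 2 and 3 and at 360.6 TPM in the repeat library of carcinoma 3. In glands it followed the epithelial markers, with 7.61 and 8.23 TPM in glands 1 and 2 and 73.7 and 61.6 TPM in glands 3 and 4. The tumor classes did not overlap, with a log2 fold change of -2.68 (SE 1.06, limma adjusted p = 0.313).

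Among gamma chains, Lamc3 fell in the tumors and Lamc1 did not pass a test. Lamc3 (chr2:31887291-31946539), a chain of low abundance known from basement membranes of nerve, eye and reproductive tract, was at 3.84, 2.35, 6.84 and 4.20 TPM in glands 1, 2, 3 and 4. It was at 0.21, 0.53 and 0.23 TPM in metaplastic carcinosarcomas 1, 2 and 3 and at 0.18, 0.04 and 1.01 TPM in carcinomas 1, 2 and 3, so that the highest tumor did not reach the lowest gland. In limma its log2 fold change was -1.93 (SE 0.28, limma adjusted p = 0.00161) for the 6 tumors, -1.95 (SE 0.33, limma adjusted p = 0.00615) for metaplastic carcinosarcomas and -1.91 (SE 0.39, limma adjusted p = 0.0406) for carcinomas, on the log2(TPM + 1) scale, which understates changes at this level. Non-TRIM24 tumors 1, 2 and 3 were at 0.12, 3.61 and 2.00 TPM. The first pair of calls held when any mouse was left out, and the call for carcinomas held only without gland 2 (highest limma adjusted p = 0.115) and was lost under quantile normalization. Against metaplastic carcinosarcomas, Lamc3 passed the filter of 1 TPM only through the glands, and that call held with no filter on low values. Sequenced again, gland 1 and carcinoma 3 had 4.71 and 1.28 TPM of Lamc3.

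Lamc1, the gamma chain of most laminins, lay between 47.7 and 125.2 TPM in the 13 mice, with log2 fold changes between -0.17 and 0.42 against glands. Without carcinoma 3, Lama5 and Itga8 were among the 3 members called between the tumor classes and Itga6 was not. With all mice, Itga8 failed the filter on low values there and was not tested. It entered this fit through carcinomas 1 and 2 (10.99 and 18.4 TPM), while carcinoma 3, the mouse left out, had 0.37 TPM. The Itga8 call therefore does not describe the carcinomas as a class.

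The 4 chains that are dedicated to laminin binding were compared next, and the only member called between the tumor classes was among them. Itga6 (chr2:71745616-71858416), which pairs with Itgb4 in hemidesmosomes and with Itgb1 elsewhere, was at 17.8, 32.1 and 28.7 TPM in metaplastic carcinosarcomas 1, 2 and 3. The levels in carcinomas 1, 2 and 3 were 101.8, 268.4 and 257.4 TPM, all above them. The log2 fold change was -2.86 (SE 0.44, limma adjusted p = 0.0467). That call was lost without each of the 6 tumors (highest limma adjusted p = 0.257) and with a pseudocount of 0.1 TPM, no filter, median-ratio scaling, no variance trend or a joint fit of all batch 1 groups, while the log2 fold change stayed between -3.32 and -2.62 when single mice were left out. Glands 1, 2, 3 and 4 had 60.3, 38.4, 253.9 and 179.1 TPM, also above each metaplastic carcinosarcoma (log2 fold change -1.96, SE 0.64, limma adjusted p = 0.06). The 3 non-TRIM24 tumors had 87.9, 39.3 and 98.7 TPM. Sequenced again, gland 1 and carcinoma 3 had 66.3 and 190.3 TPM of Itga6.

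Itgb4, the hemidesmosome beta chain, was also lower in metaplastic carcinosarcomas than in carcinomas, without a call. It was at 2.06, 6.23 and 6.55 TPM in metaplastic carcinosarcomas 1, 2 and 3 and at 45.2, 29.9 and 106.2 TPM in carcinomas 1, 2 and 3 (log2 fold change -3.28, SE 0.56, limma adjusted p = 0.0665). Glands 1 and 2 had 4.97 and 6.15 TPM, within the range of the metaplastic carcinosarcomas, and glands 3 and 4 had 43.4 and 28.3 TPM. Non-TRIM24 tumors spanned 8.59 to 82.58 TPM of Itgb4. Their median was the highest of the groups, at 51.05 TPM against 45.23 TPM in carcinomas. Itga3, the laminin receptor chain that pairs with Itgb1, was at 387.9 TPM in carcinoma 3 and at 155.9 and 46.0 TPM in carcinomas 1 and 2. Metaplastic carcinosarcomas 1, 2 and 3 kept 46.9, 68.9 and 55.8 TPM, against 7.40, 8.28, 58.3 and 41.9 TPM in glands 1, 2, 3 and 4. Its log2 fold change for the 6 tumors was 2.10 (SE 0.73) and missed the threshold (limma adjusted p = 0.0695). Itga7, the laminin receptor of muscle, ran the other way from Itga6 and Itgb4: it was at 24.9 to 36.1 TPM in metaplastic carcinosarcomas and 1.74 to 8.99 TPM in carcinomas (log2 fold change 2.39, SE 0.52, limma adjusted p = 0.134). Its highest value was 132.5 TPM in non-TRIM24 tumor 2, and glands 1 and 2 (34.4 and 56.4 TPM) stood far above glands 3 and 4 (4.84 and 4.06 TPM).

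**Figure D4:**
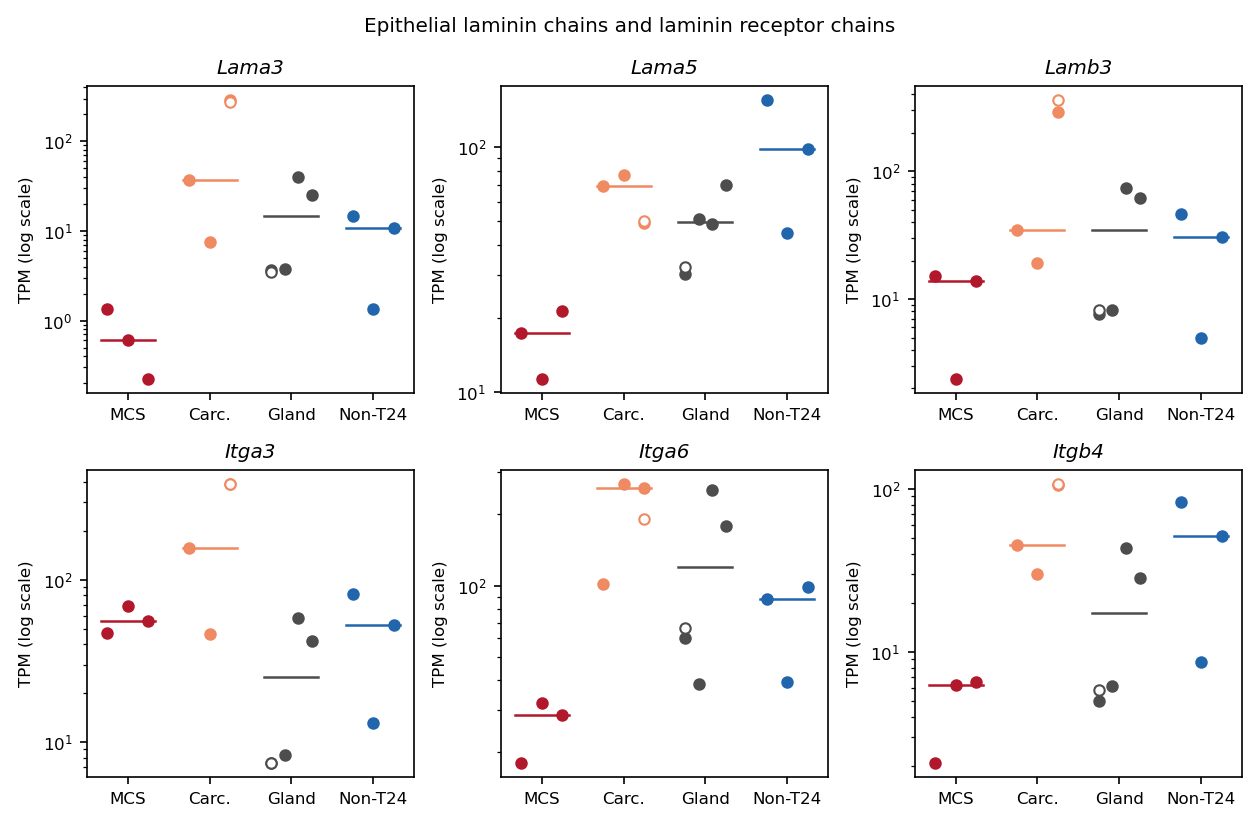
TPM (log axis) of 3 laminin chains of epithelium (top) and of 3 laminin receptor chains (bottom) in metaplastic carcinosarcomas (MCS), Trim24COE carcinomas (Carc.), control glands (Gland) and non-TRIM24 tumors (Non-T24); each point is a library, open points are repeat libraries and lines are group medians over first libraries. Carcinoma 3 is highest for Lama3, Lamb3, Itga3 and Itgb4, and the 3 metaplastic carcinosarcomas lie below the 3 carcinomas for Lama3, Lama5, Lamb3, Itga6 and Itgb4.

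Epithelial marker genes moved with these chains. The 10 epithelial markers, among them Epcam and keratins, summed to 315.8 to 1414 TPM in metaplastic carcinosarcomas, 3054 to 7497 TPM in carcinomas, 938 to 5156 TPM in glands and 576 to 5704 TPM in non-TRIM24 tumors, and none of them was at 0 in every library of a group. Of these 10, 8 were lower in metaplastic carcinosarcomas than in glands and 4 were lower than in carcinomas. Epcam was between 2.73 and 36.4 TPM in metaplastic carcinosarcomas and between 280.5 and 1275 TPM in carcinomas. The part of these markers in the difference in Itga6, Itgb4, Lama3, Lama5 and Lamb3 was not tested. Glands 1 and 2 had lower levels of Lama3, Lamb3, Itga3, Itga6 and Itgb4 than glands 3 and 4, whereas Lama5 did not part the glands in this way. With the adipocyte markers as a covariate, 20 members were called in metaplastic carcinosarcomas against glands in place of 15. This fit gained 9 members, among them Itga6, Itgb4 and Lamb3 as lower, and lost 4 (Itga5, Itgb5, Itgb1 and Itgb2). The adipocyte markers summed to 173.1 to 234.9 TPM in metaplastic carcinosarcomas, below the lowest gland at 1774 TPM. The adjusted differences therefore reach beyond marker levels that both groups share.

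Itgb1 (chr8:128685654-128733200), the chain shared by most laminin, collagen and fibronectin receptors, was at 464.7, 619.0 and 533.5 TPM in metaplastic carcinosarcomas 1, 2 and 3. In carcinomas 1, 2 and 3 it was at 279.0, 291.7 and 702.7 TPM, with 522.3 TPM in the repeat of carcinoma 3 and 100.2 TPM in that of gland 1, and glands 1, 2, 3 and 4 had 101.7, 107.3, 287.0 and 219.1 TPM. The metaplastic carcinosarcomas lay above all glands, while carcinoma 1 fell just below gland 3. Itgb1 rose by a log2 fold change of 1.48 (SE 0.37, limma adjusted p = 0.0212) in the 6 tumors and 1.72 (SE 0.40, limma adjusted p = 0.0203) in metaplastic carcinosarcomas. Without gland 1 or 2 the first call was lost (highest limma adjusted p = 0.0639), and without any of metaplastic carcinosarcomas 1, 2 and 3 the second was (highest limma adjusted p = 0.0789). Both were lost with the adipocyte covariate. Non-TRIM24 tumors 1, 2 and 3 had 155.7, 86.0 and 152.4 TPM, below all 3 carcinomas, with a log2 fold change of 1.35 for carcinomas against them (SE 0.48, limma adjusted p = 0.211). As a share of the summed TPM of the 8 integrin beta chains, Itgb1 made up 60.4% to 76.9% in Trim24COE tumors, 54.4% to 61.0% in glands and 43.8% to 48.3% in non-TRIM24 tumors.

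None of the 4 collagen-binding alpha chains was called. Itga1, a receptor of basement membrane collagen, was the most evenly expressed of them, between 1.51 and 12.6 TPM in the 13 mice. Itga2, an epithelial collagen receptor, was between 0.30 and 0.67 TPM in metaplastic carcinosarcomas and at 5.60, 0.87 and 13.3 TPM in carcinomas 1, 2 and 3. Itga10 and Itga11, the collagen receptors of cartilage and of fibroblasts, did not pass 5.51 TPM in any mouse. Itga2 was not tested for metaplastic carcinosarcomas, Itga10 for the 6 tumors, and Itga10 and Itga11 for carcinomas, because they failed the filter on low values there.

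The RGD-binding chains, receptors of fibronectin, vitronectin and latent TGF-beta, split into chains that rose and chains that fell in metaplastic carcinosarcomas. Itga5, which pairs with Itgb1 as the main fibronectin receptor, was at 78.1, 74.6 and 54.4 TPM in metaplastic carcinosarcomas 1, 2 and 3, and glands 1, 2, 3 and 4 had 5.28, 8.50, 33.9 and 29.0 TPM. These groups did not overlap, and carcinomas 1, 2 and 3 spread around them with 31.4, 15.4 and 93.5 TPM. On the log2 scale the difference was 2.13 (SE 0.61, limma adjusted p = 0.0393) for metaplastic carcinosarcomas, lost without any of metaplastic carcinosarcomas 1, 2 and 3 and glands 1 and 2 (highest limma adjusted p = 0.139), with the adipocyte covariate and in the joint fit of all batch 1 groups. The non-TRIM24 tumors had 24.2, 15.2 and 19.3 TPM of this chain. The repeat libraries of gland 1 and carcinoma 3 gave 7.47 and 112.7 TPM.

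Itgb5, a partner of Itgav in vitronectin binding, was the second most abundant beta chain in 12 of the 13 mice, at 192.6, 189.0 and 93.3 TPM in metaplastic carcinosarcomas 1, 2 and 3. Glands 1, 2, 3 and 4 had 44.6, 52.2, 81.7 and 75.9 TPM, all lower, and carcinomas 1, 2 and 3 had 75.1, 73.0 and 168.5 TPM. Its log2 fold change was 1.27 (SE 0.35, limma adjusted p = 0.0347) in metaplastic carcinosarcomas. The call was lost without any of metaplastic carcinosarcomas 1 and 2 and glands 1, 2 and 4 (highest limma adjusted p = 0.146) and with the adipocyte covariate. In order, the non-TRIM24 tumors had 82.2, 61.3 and 72.4 TPM of this chain. Sequenced again, gland 1 and carcinoma 3 had 57.01 and 197.4 TPM of Itgb5.

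Itga8, the receptor chain for nephronectin, fell in metaplastic carcinosarcomas. It was at 0.17, 0.71 and 0.41 TPM in metaplastic carcinosarcomas 1, 2 and 3 and at 4.05, 2.72, 19.5 and 12.1 TPM in glands 1, 2, 3 and 4, without overlap. Carcinomas 1 and 2 had 10.99 and 18.4 TPM, like the higher pair of glands, whereas carcinoma 3 had 0.37 TPM, like the metaplastic carcinosarcomas. The log2 fold change was -2.58 (SE 0.59, limma adjusted p = 0.0188), lost without metaplastic carcinosarcoma 1, 2 or 3 (highest limma adjusted p = 0.0859) and in the joint fit of all batch 1 groups. No metaplastic carcinosarcoma reached the 1 TPM of the filter, so Itga8 was tested through its level in glands. With no filter on low values the call was lost. The non-TRIM24 tumors had 6.33, 0.91 and 7.01 TPM of this chain. In batch 2, Itga8 was at 3.08 TPM in gland 1 and 0.34 TPM in carcinoma 3.

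Itgb6, an epithelial chain that activates latent TGF-beta, was at 0.15, 0.54 and 0.14 TPM in metaplastic carcinosarcomas 1, 2 and 3 and at 1.36, 1.86, 4.76 and 3.65 TPM in glands 1, 2, 3 and 4. Carcinomas 1, 2 and 3 had 2.54, 2.43 and 1.81 TPM, inside the range of the glands. It fell in metaplastic carcinosarcomas by a log2 fold change of -1.54 (SE 0.36, limma adjusted p = 0.0204), a call that was lost without metaplastic carcinosarcoma 1, 2 or 3 (highest limma adjusted p = 0.0954) and under quantile normalization. Itgb6 passed the filter of 1 TPM there only through the glands, and the call was also lost with no filter on low values. The 3 non-TRIM24 tumors had 3.93, 0.33 and 2.47 TPM. In batch 2, Itgb6 was at 0.76 TPM in gland 1 and 1.27 TPM in carcinoma 3.

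The other RGD-binding chains passed no test. Itgb8, also a TGF-beta activating chain, was between 1.08 and 2.35 TPM in metaplastic carcinosarcomas and between 3.45 and 20.9 TPM in glands, with a log2 fold change of -1.75 (SE 0.58, limma adjusted p = 0.0618). Itgav, the shared vitronectin receptor chain, was between 16.1 and 127.6 TPM in the 13 mice and differed between libraries of the same mouse, with 66.8 and 30.9 TPM for carcinoma 3 and 22.7 and 13.2 TPM for gland 1, lower in batch 2 in both. Itgb3, its partner on platelets, osteoclasts and vessels, was between 2.26 and 28.5 TPM. Itga2b, the platelet fibrinogen receptor chain, was between 1.68 and 13.8 TPM. In the repeat libraries the median absolute log2 difference over the 37 members was 0.23 for gland 1 and 0.18 for carcinoma 3, and 5 and 3 members differed by more than 0.5.

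Itga4 and Itga9, receptor chains for fibronectin splice forms, VCAM1 and tenascin-C, were not called in any comparison. Itga4 stayed between 0.64 and 3.42 TPM in the 13 mice. Itga9 was between 5.22 and 14.8 TPM in Trim24COE tumors, and glands again formed 2 pairs, with 2.21 and 2.23 TPM in glands 1 and 2 and 11.8 and 7.68 TPM in glands 3 and 4.

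Of the 7 leukocyte chains, Itgam and Itgb2 rose in tumors, Itgb7 rose in metaplastic carcinosarcomas and Itgae fell. Itgam (chr7:128062640-128118491), which pairs with Itgb2 on macrophages and neutrophils and is the gene of the third promoter shown, was at 23.8, 30.5 and 23.97 TPM in metaplastic carcinosarcomas 1, 2 and 3. The levels in carcinomas 1, 2 and 3 were 21.0, 11.1 and 19.9 TPM, and glands 1, 2, 3 and 4 had 2.84, 6.77, 1.70 and 1.67 TPM. Each tumor was above every gland. On the log2 scale the difference was 2.51 (SE 0.36, limma adjusted p = 0.00149) for the 6 tumors, 2.81 (SE 0.42, limma adjusted p = 0.00379) for metaplastic carcinosarcomas and 2.21 (SE 0.46, limma adjusted p = 0.0438) for carcinomas. The first pair of calls held when any mouse was left out, and the call for carcinomas held only without gland 2 (highest limma adjusted p = 0.135). Non-TRIM24 tumors 1, 2 and 3 had 4.01, 4.35 and 4.07 TPM, within the range of the glands and below the carcinomas (log2 fold change for carcinomas against them 1.61, SE 0.40, limma adjusted p = 0.154). Sequenced again, gland 1 and carcinoma 3 had 2.43 and 17.3 TPM of Itgam.

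Itgb2, the beta chain common to the Itgal, Itgam, Itgax and Itgad receptors, was at 22.7, 95.8 and 24.97 TPM in metaplastic carcinosarcomas 1, 2 and 3 and at 37.1, 19.96 and 70.3 TPM in carcinomas 1, 2 and 3. Glands 1, 2, 3 and 4 had 7.84, 13.8, 13.01 and 11.2 TPM, all lower than the 6 tumors. The log2 fold change was 1.66 (SE 0.44, limma adjusted p = 0.0251) for the 6 tumors and 1.68 (SE 0.50, limma adjusted p = 0.0455) for metaplastic carcinosarcomas. Without gland 1 or 4 the first call was lost (highest limma adjusted p = 0.0695), and the second was lost without each of the 7 mice (highest limma adjusted p = 0.0906). Both were lost with the adipocyte covariate, and the second also in the joint fit of all batch 1 groups. Itgax, the dendritic cell and macrophage chain, had a log2 fold change of 1.34 for the 6 tumors (SE 0.47, limma adjusted p = 0.0721), and Itgal, the lymphocyte chain, one of 0.74 (SE 0.46, limma adjusted p = 0.295). Itgad stayed below 0.87 TPM or at it in the 13 mice and was not tested in any comparison. The non-TRIM24 tumors had 13.2, 22.9 and 16.4 TPM of Itgb2. The repeat libraries of gland 1 and carcinoma 3 gave 9.47 and 75.6 TPM of Itgb2.

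Itgb7, which pairs with Itga4 and Itgae on lymphocytes, was at 11.5, 13.6 and 21.8 TPM in metaplastic carcinosarcomas 1, 2 and 3, above glands 1, 2, 3 and 4 with 3.85, 8.95, 4.29 and 4.04 TPM. In carcinomas 1, 2 and 3 it was at 6.02, 1.84 and 1.01 TPM. Its log2 fold change against glands was 1.43 (SE 0.37, limma adjusted p = 0.0281), a call that held only without gland 2 (highest limma adjusted p = 0.096) and was lost in the joint fit of all batch 1 groups, and against carcinomas it was 2.23 (SE 0.51, limma adjusted p = 0.149). Itgae, the chain of T cells lodged in epithelium, was at 0.43, 1.04 and 0.50 TPM in metaplastic carcinosarcomas 1, 2 and 3, at 1.42, 1.10 and 0.40 TPM in carcinomas 1, 2 and 3 and at 2.97, 1.16, 4.78 and 3.47 TPM in glands 1, 2, 3 and 4. Gland 2 lay below carcinoma 1, and the other glands above all tumors. In limma its log2 fold change was -1.12 (SE 0.30, limma adjusted p = 0.0284) for the 6 tumors and -1.24 (SE 0.37, limma adjusted p = 0.0446) for metaplastic carcinosarcomas. These calls held in 4 of 10 and 1 of 7 fits that left out a mouse. The first was lost without any of metaplastic carcinosarcomas 1 and 3, carcinoma 3 and glands 1, 3 and 4, and the second held only without gland 2. Both were lost under quantile normalization and with no filter on low values, and the first also with the adipocyte covariate. Of the metaplastic carcinosarcomas only tumor 2 reached the 1 TPM of the filter, so Itgae was tested in that class through its level in glands. In order, the non-TRIM24 tumors had 0.42, 0.83 and 0.49 TPM of Itgae. The repeat libraries of gland 1 and carcinoma 3 gave 3.99 and 0.41 TPM of Itgae. In order, the non-TRIM24 tumors had 1.34, 4.78 and 5.26 TPM of Itgb7. For Itgb7 the repeat libraries of gland 1 and carcinoma 3 had 4.99 and 1.59 TPM.

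**Figure D5:**
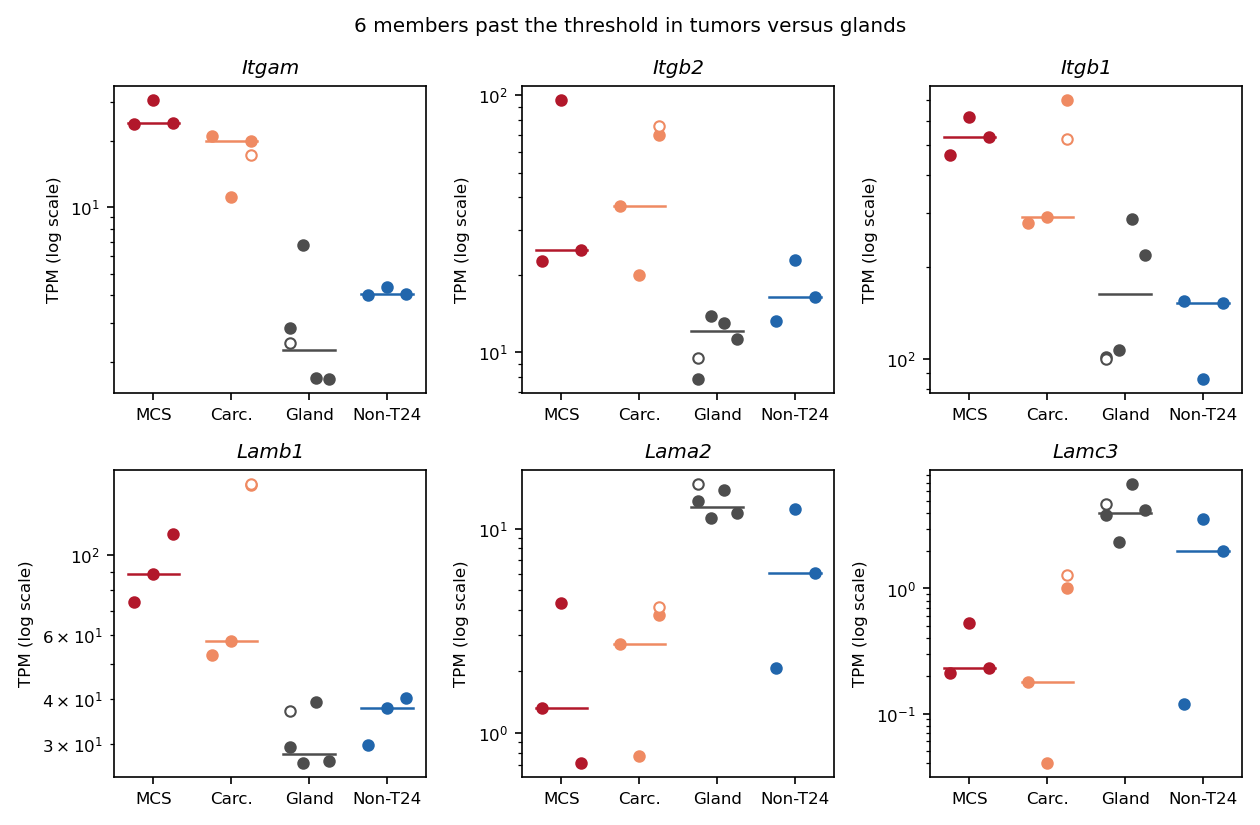
TPM (log axis) of 6 members that passed the limma threshold in the 6 Trim24COE tumors against control glands, drawn by group as MCS (metaplastic carcinosarcomas), Carc. (Trim24COE carcinomas), Gland (control glands) and Non-T24 (non-TRIM24 tumors); each point is a library, open points are repeat libraries and lines are group medians over first libraries. For Itgam, Itgb2 and Lamb1 every Trim24COE tumor lies above every gland, for Lama2 and Lamc3 below, and for Itgb1 carcinoma 1 lies just below gland 3.

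Myeloid marker genes rose in the 6 Trim24COE tumors, as Itgam and Itgb2 did. In non-TRIM24 tumors the macrophage and neutrophil marker sums were also above those of every gland, but Itgam stayed within the range of the glands. Of the 9 macrophage markers 7 rose in the 6 tumors against glands, and of the 6 neutrophil markers 5 were tested and all 5 rose. The macrophage markers summed to 1820 to 3471 TPM in metaplastic carcinosarcomas, 1185 to 2573 TPM in carcinomas, 256.1 to 848.6 TPM in glands and 1021 to 1592 TPM in non-TRIM24 tumors. The neutrophil markers summed to 214.4 to 286.3 TPM, 97.7 to 2014 TPM, 6.29 to 12.4 TPM and 39.2 to 299.0 TPM in the same order, and none of either list was at 0 in every library of a group. The T and NK cell markers did not rise, with 0 of 9 higher and 2 lower in the 6 tumors. Basal and myoepithelial markers fell in 4 of 9 cases and Schwann cell markers in 4 of 6, in the comparison in which Lama1, Lama2, Lamb2 and Lamc3 fell. Endothelial markers also fell there in 4 of 9 cases and adipocyte markers in 3 of 10. The basal and myoepithelial and the Schwann cell markers summed to 130.4 to 594.5 TPM and 37.9 to 103.2 TPM in metaplastic carcinosarcomas. In the same order, the sums were 149.2 to 3544 TPM and 34.5 to 147.9 TPM in carcinomas. Glands had 334.8 to 4432 TPM and 123.9 to 321.6 TPM, and non-TRIM24 tumors 234.1 to 1316 TPM and 150.5 to 262.2 TPM. The part of these cell types in the changes of the chains was not tested.

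Partner genes of the chains were counted from 3 lists. Of all genes tested against glands, 7.96% rose and 9.13% fell in the 6 tumors. These shares were 9.83% and 13.1% for metaplastic carcinosarcomas and 1.58% and 1.92% for carcinomas. Of 20 integrin ligands, 5 rose and 3 fell in the 6 tumors, 7 rose and 4 fell in metaplastic carcinosarcomas, and 3 rose and 2 fell in carcinomas, each against glands. Spp1 (osteopontin, log2 fold change 5.76), Fn1 (fibronectin, 4.94) and Tnc (tenascin-C) had the smallest adjusted p among those that rose in the 6 tumors, and Vwf (von Willebrand factor, -2.66), Vtn (vitronectin, -2.57) and Madcam1 (the gut homing ligand of Itgb7, -2.19) were those that fell. Spp1 also rose in non-TRIM24 tumors against glands (log2 fold change 5.32, limma adjusted p = 0.01), as the only one of the 20 called there. The median log2 fold change of the list in the 6 tumors was 1.14, beside -0.04 over all genes tested and 0.13 over the 35 members.

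Of 33 genes of the adhesion machinery, which links integrin tails to actin, 3 rose and 4 fell in the 6 tumors. In metaplastic carcinosarcomas 3 rose and 3 fell, and in carcinomas 0 rose and 1 fell. The median of the list was 0.26 in the 6 tumors. These counts lay close to the shares of all genes given above, so they do not set the list apart. Fermt3 (kindlin of blood cells, log2 fold change 1.70), Parvg (parvin of blood cells, 1.57) and Vasp (an actin regulator, 1.04) rose, and Lims2 (-3.37), Tns1 (-2.58) and Tns2 (-1.13) were the strongest by adjusted p among those that fell. Fermt1, the kindlin of epithelium, fell in metaplastic carcinosarcomas (log2 fold change -1.91, limma adjusted p = 0.024) and Parvb rose (2.15, limma adjusted p = 0.00218). Tns4, an epithelial tensin, was the one gene of the list called between the tumor classes, lower in metaplastic carcinosarcomas (log2 fold change -4.03, limma adjusted p = 0.0391).

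Of 20 basement membrane partners 17 were tested against glands, and the same shares of all genes stand beside their counts. Bcam, a receptor for Lama5 laminins, was the only one called in the 6 tumors (log2 fold change -2.74, limma adjusted p = 0.0352). In metaplastic carcinosarcomas Bcam (-3.92), Col17a1 (the hemidesmosome collagen, -2.61) and Col4a6 (-2.09) fell and Col7a1 (the anchoring fibril collagen, 2.04) rose. In carcinomas 0 of the 17 were called by limma, and in the comparison of the tumor classes 0 of 16.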

How the data were processed

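RNA-seq of 15 libraries from 13 mice was used. The TPM values were made by the authors, who per the paper's methods trimmed reads with Trimmomatic, aligned them to GRCm38 with STAR and estimated abundance with RSEM on GENCODE annotation. The labels also name TopHat and Cufflinks, so which tools made the deposited tables is not settled. No counts were used, and depth is unknown.

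Members were taken by symbol, and 1 of them is counted but not reported here. Members and gene lists were chosen with earlier results of these data known. Values were tested as log2(TPM + 1) with limma 3.58.1 in R 4.3.3 (variance trend, Benjamini-Hochberg, threshold 0.05), on genes at 1 TPM or more in as many fitted libraries as the smaller group has mice. Comparisons within batch 1 used its libraries. Comparisons with non-TRIM24 tumors used both batches with a batch term, and libraries of a mouse were linked by duplicateCorrelation (0.951), a value also used when gland 1 or carcinoma 3 was left out. Members past the threshold are given with the value of every library, and the others by range. Replicates were numbered in order within each group. The fit was tested on simulated data with a fixed spread between mice that was not taken from these libraries. That test does not show how the fit performs at their spread. Alternatives were another pseudocount, no filter, other scalings, no variance trend, one joint fit, an adipocyte covariate, first libraries only and leaving out each mouse. Loci are from GENCODE on GRCm38. Python 3.11.15 drew the figures with matplotlib 3.10.9.

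Besides the lists given with their values in the report, fibroblast, endothelial, B cell, platelet, pericyte and skeletal muscle markers were counted. In the 6 Trim24COE tumors against glands, 2 fibroblast markers and 1 pericyte marker were higher, and 4 endothelial, 3 B cell, 2 pericyte and 3 adipocyte markers were lower, with no call for platelet and skeletal muscle markers.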

Additional observations from a re-analysis of the deposited data

Results flagged for a closer look

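For each member, the 4 control glands and the 6 Trim24COE tumors were checked as groups. The distance of the highest or lowest mouse from its neighbour was set against the whole range of the group. This was done for 72 groups, of which chance alone is expected to pick about 1 in 20. Itga2b, the platelet fibrinogen receptor chain, was lowest in gland 1, at 7.47 TPM against 9.97 to 10.25 TPM in the other glands, a gap of 0.911 of the range. Itgb7, the lymphocyte beta chain, was highest in gland 2, at 8.95 TPM against 3.85 to 4.29 TPM in the other glands, a gap of 0.879 of the range. The repeat library of gland 1 had 8.95 TPM of Itga2b.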

How the results depend on the processing

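Of the 9 members called in the 6 Trim24COE tumors against glands, 4 were called with no filter on low values and 4 with the adipocyte covariate, and 5 to 11 members with single mice left out. For metaplastic carcinosarcomas against glands the count of 15 became 4 with no filter, and 4 to 14 when a mouse was left out. It was 10 in the joint fit of all batch 1 groups, which lost Itga5, Itga8, Itgb2, Itgb7, Lama3 and Lamb2 and gained Lama1, and 14 under quantile normalization, which lost Itgb6, Itgae and Lama3 and gained Itga6 and Itga11. For carcinomas against glands the count of 3 became 0 with no filter, and 0 to 2 when a mouse was left out, with 0 without any of carcinomas 1, 2 and 3 and glands 1, 3 and 4. Between the tumor classes the count of 1 became 0 with a pseudocount of 0.1 TPM, 0 with no filter, 0 with median-ratio scaling and 0 with no variance trend, and 0 to 3 when a mouse was left out. Non-TRIM24 tumors against glands gave 2 members instead of 0 with first libraries only and no batch term (Itgb8 and Itgae), and 0 to 1 when a mouse was left out (1 without gland 2) (1 without gland 2). Carcinomas against non-TRIM24 tumors gave 2 instead of 0 in that setting (Itgb1 and Itgam), and batch and group cannot be told apart there. For the called members taken singly, 320 alternative values kept direction and call, 144 kept direction and lost the call, and 0 turned direction. The cause of the lost calls was not tested. No paired analysis was possible because the numbers do not link mice of different groups.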
